A study of Homo sapiens with 13 samples.

Results

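The hyaluronan genes are 10 genes that make, bind or break down hyaluronan: *HAS1*, *HAS2*, *HAS3*, *CD44*, *TNFAIP6*, *CEMIP*, *CEMIP2*, *HYAL1*, *HYAL2* and *HYAL3*. They were chosen by symbol through the Ensembl identifiers of the deposited count table, which matched all 10 members among 43836 genes. Expression was measured by mRNA sequencing in hFOB 1.19 cells, a fetal human osteoblast line that was immortalized, so every library comes from 1 line. Positive controls (PC) were grown with 10% fetal bovine serum (FBS), negative controls (NC) without FBS, and both received the vehicle solvent. The remaining groups were grown without FBS and given 1 mcg/mL of a compound: RES is resveratrol, POG is the anthocyanin peonidin-3-O-glucoside, and DEG is a code that the labels do not spell out. Counts were analysed for 2 PC, 2 NC, 3 RES, 3 POG and 2 DEG libraries, and 1 more DEG library is labelled and was not analysed here.

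Hyaluronan is a long, unbranched sugar polymer of the extracellular matrix. Hyaluronan synthases at the plasma membrane build it from UDP-glucuronic acid and UDP-N-acetylglucosamine and push the chain out of the cell as it grows. Cell surface receptors and matrix proteins bind the chains, and hyaluronidases and the CEMIP proteins cut them into fragments that lysosomal enzymes finish. In bone and cartilage, hyaluronan fills the space around cells and organizes large proteoglycans, and its fragments are known to act as signals in inflamed tissue.

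Library totals ran from 38464619 to 51416358 counted reads, and all 10 members passed the filter on low counts. *COL1A1* and *COL1A2*, the chains of bone collagen, reached 2463 to 2869 and 1112 to 1420 CPM (counts scaled to a common library size), and *RUNX2*, a transcription factor of osteoblasts, 44.3 to 51.6 CPM. Of the other osteoblast markers, *SPARC* was at 1019 to 1177 CPM and *ALPL* at 3.22 to 6.66. *DLX5* (0.65 to 1.84 CPM), *SPP1* (0.95 to 2.34), *SP7* (0 to 0.181), *BGLAP* (0.425 to 2.00) and *IBSP* (0 to 0.0224) were low. The sum of all 10 osteoblast markers was 5463 to 5525 CPM in PC and 5264 to 5322 in NC. With compounds it was 4908 to 5036 CPM in RES, 4752 to 4788 in POG and 4764 to 4771 in DEG. *COL1A1*, *COL1A2* and *SPARC* carried this sum, and *SPARC* and *RUNX2* were higher in POG and DEG than in RES. The summed level of 6 leukocyte and macrophage markers was 2.89 to 5.06 CPM, with *PTPRC* at 0 to 0.157 CPM. The sum of 6 endothelial markers was 79.3 to 85.9 CPM in PC, 56.2 to 57.6 in NC, 71.5 to 78.2 in RES, 48.9 to 52.3 in POG and 51.7 to 52.2 in DEG. *TEK* (33.1 to 56.8 CPM), *TIE1* (5.35 to 17.1) and *ROBO4* (5.57 to 9.15) carried it, and *CDH5* was at 0 to 0.112 CPM. For 6 epithelial markers, carried by *KRT8* and *KRT18*, the sum was 464 to 506 CPM in PC, 397 to 406 in NC, 443 to 454 in RES, 338 to 348 in POG and 364 to 369 in DEG, with *KRT5* at 0 to 0.133 CPM. The sum of 6 chondrocyte markers, carried by *MATN3* (19.5 to 29.4 CPM), *SOX9* (1.20 to 6.19) and *COL11A2* (2.13 to 3.43), was 33.5 to 34.8 CPM in PC, 25.5 to 28.7 in NC, 34.8 to 37.3 in RES, 29.1 to 30.5 in POG and 29.4 to 30.8 in DEG, with *COL9A1* at 0 to 0.0222 CPM. The part of these markers in the results was not tested. In such bulk RNA, fewer cells of a type and less RNA per cell cannot be told apart.

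Levels between genes were compared as CPM per kilobase of exon, with CPM scaled by TMM, a method that corrects library totals for composition. *CD44* was the most abundant member, with a mean of 100.8 CPM per kilobase over the 12 libraries, and no other member overlapped it. *TNFAIP6* (17.8), *HYAL2* (9.48) and *CEMIP* (9.22) came next and their ranges over libraries overlapped, at 10.2 to 22.0, 8.29 to 10.5 and 6.49 to 14.8. *CEMIP2* (4.74), *HAS2* (4.22) and *HYAL3* (3.56) also overlapped, and *HAS2* ranged from 2.21 to 11.4. *HYAL1* (1.04) and *HAS3* (0.766) overlapped at the low end. *HAS1* was lowest, at 0.0346 to 0.140 CPM per kilobase, with 3 to 14 reads in a library. The order was the same when lengths were taken from the longest transcript.

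**Figure D1:**
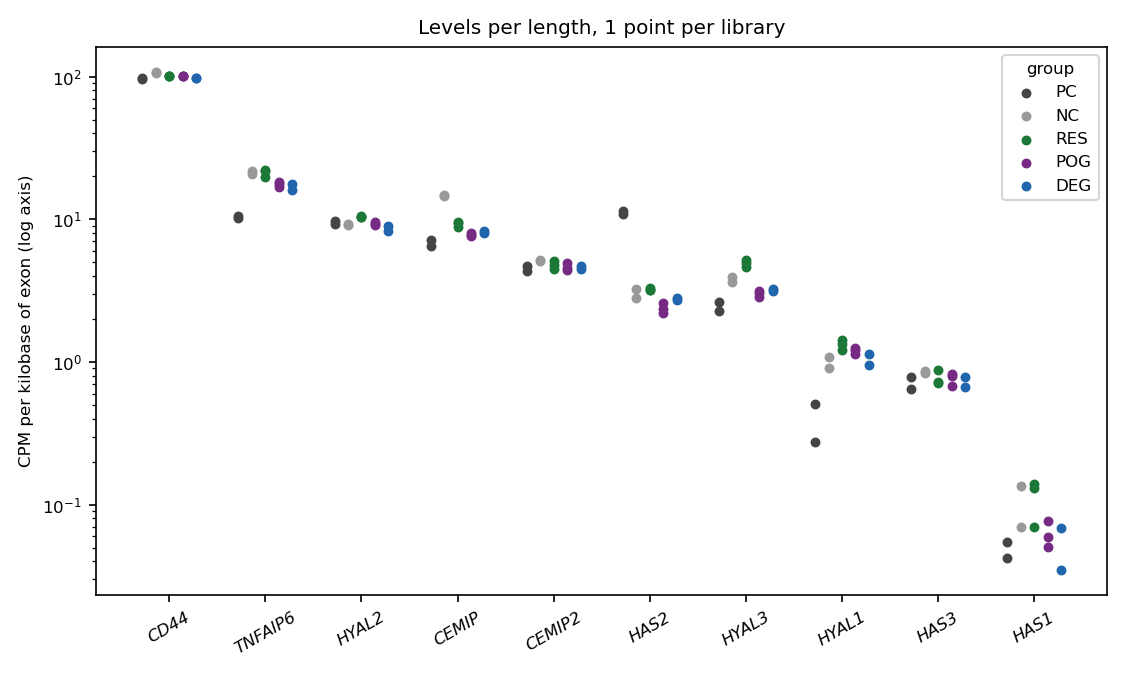
Levels of the 10 genes as CPM per kilobase of exon on a log axis, 1 point per library coloured by group, ordered by the mean over libraries. *CD44* lies between 96.8 and 108 in every library, and the PC points of *HAS2* stand above its other libraries while those of *HYAL1* stand below.

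Each group was compared with the negative controls by edgeR's exact test, and genes whose false discovery rate (FDR) over the 17092 tested genes was under 0.05 were called. In PC, 7 of the 10 members were called (1 higher, 6 lower), where 42.4% of all genes tested were called (21.4% higher, 20.9% lower). In RES, 4 were called (2 higher, 2 lower), where the background was 11.2% (4.94% higher, 6.21% lower). In POG, 5 were called, all lower, where it was 14.5% (5.93% higher, 8.57% lower). In DEG, 3 were called, all lower, where it was 9.63% (3.52% higher, 6.11% lower). The members' median log2 fold change was −0.44 in PC, 0.04 in RES, −0.21 in POG and −0.19 in DEG, and that of all genes tested was −0.0059, 0.0011, 0.0023 and 8.296e-04. These comparisons share the same 2 NC libraries. Nothing in the labels says that libraries of a group came from separate cultures, so the tests measure the spread between these libraries, which may be technical.

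**Figure D2:**
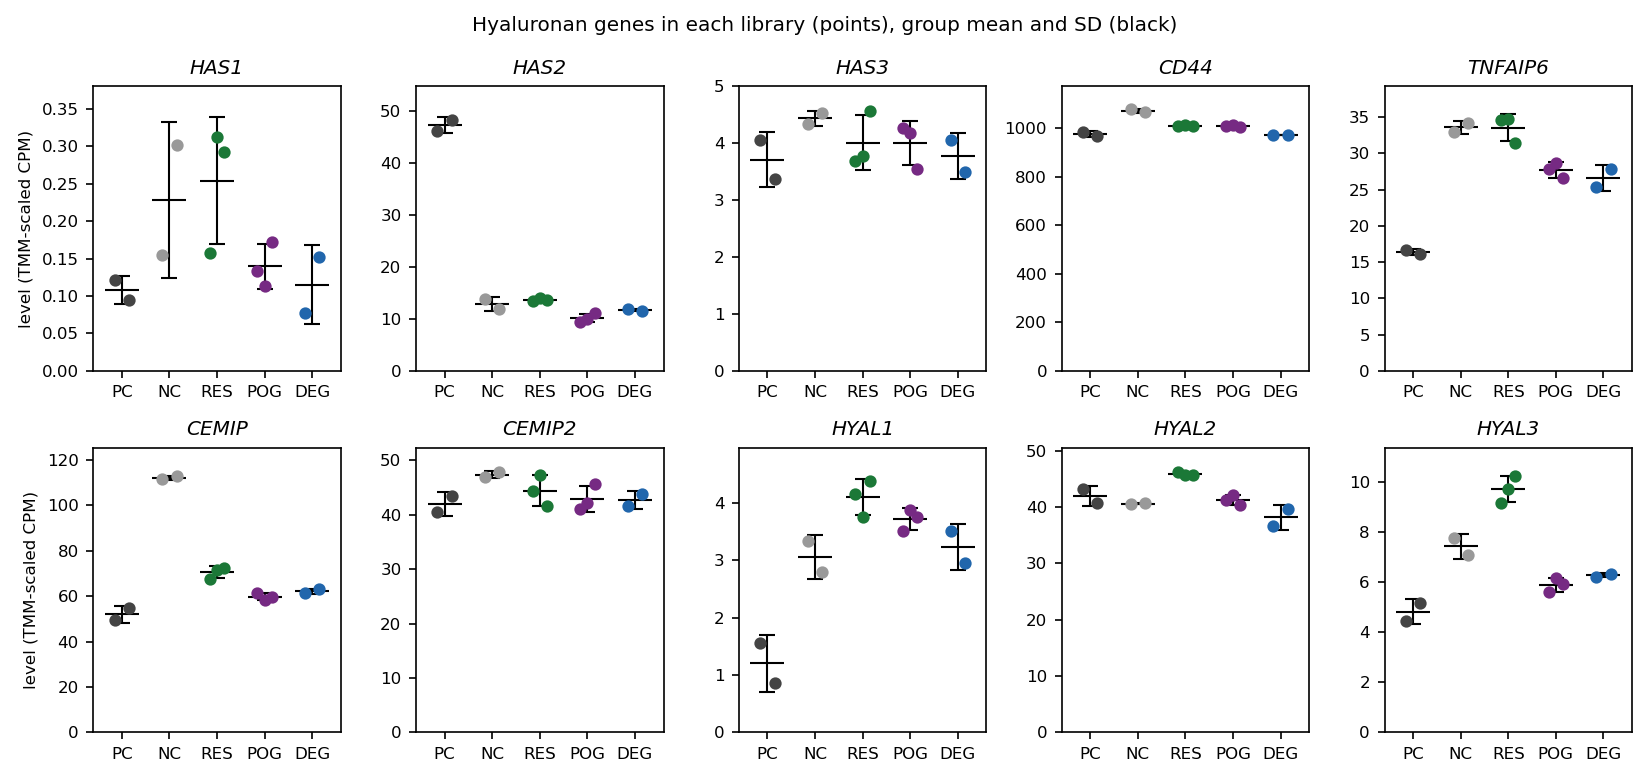
Level of each gene in TMM-scaled CPM in every library (points), with the group mean and SD in black and axes that start at 0. *CEMIP* is at 111 to 113 CPM in NC and at 49.4 to 72.4 CPM in all other libraries, and *HAS2* is at 46.1 to 48.2 CPM in PC and at 9.37 to 14.01 CPM elsewhere.

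**Figure D3:**
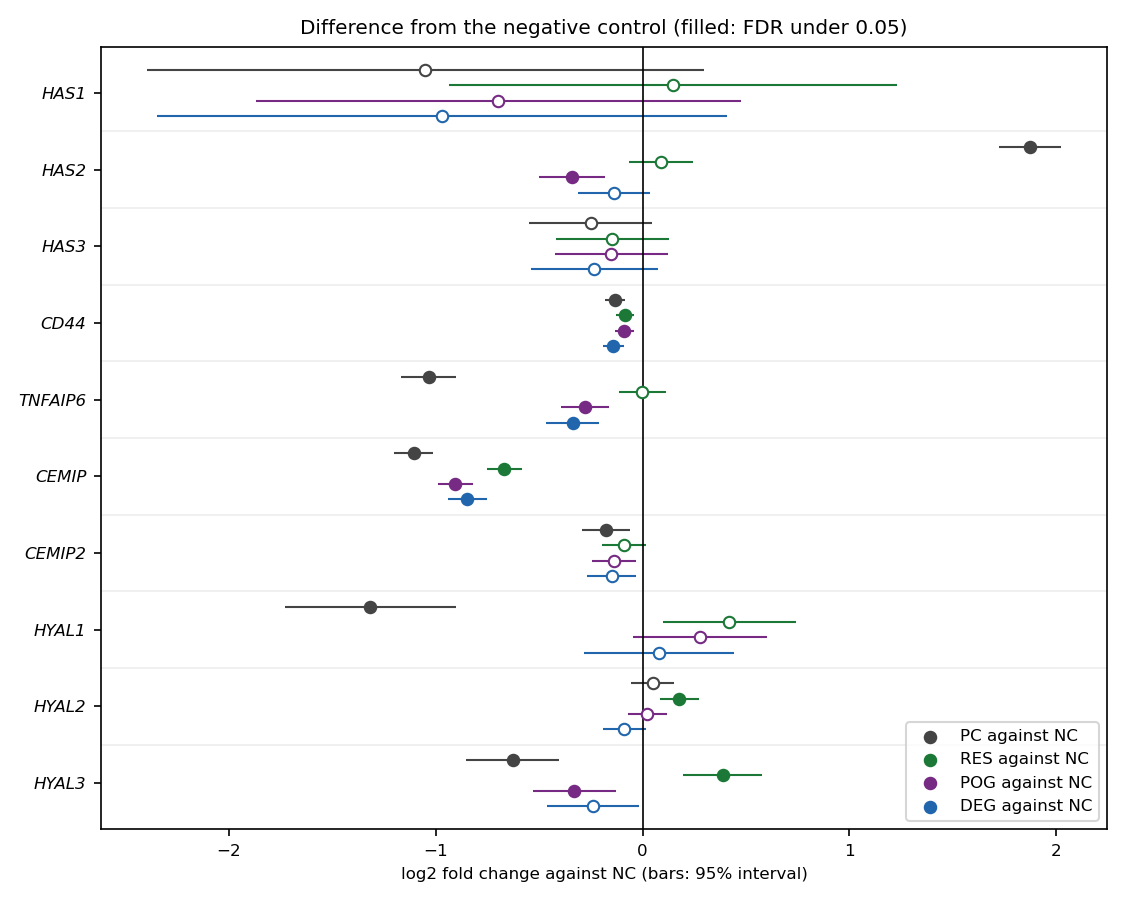
Log2 fold change of each gene against NC with its 95% interval, filled where the FDR was under 0.05. With serum *HAS2* lies at 1.87, and *CEMIP*, *TNFAIP6*, *HYAL1* and the uncalled *HAS1* (open) lie below −1. *CEMIP* lies below 0 in all 4 comparisons.

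The synthases were dominated by *HAS2* (ENSG00000170961.6; hg38 chromosome 8, 121612116 to 121641440), the family member best known for making long hyaluronan chains. *HAS2* stood at 46.1 and 48.2 CPM in PC and at 13.8 and 11.9 CPM in NC. Both PC libraries were far above every library without serum. The level was 3.67-fold higher with serum (log2 fold change 1.87, SE 0.0766, edgeR FDR 6.15e-137). Among the synthases summed per kilobase, *HAS2* made up 93.6% ± 0.988 in PC and 76.0% ± 3.33 in NC (SD, n = 2 and 2), and *HAS3* made up 6.01% ± 0.909 and 21.4% ± 2.00.

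RES libraries held *HAS2* at 13.5, 14.01 and 13.6 CPM, which overlapped the NC libraries (log2 fold change 0.09, 95% interval −0.06 to 0.24, edgeR FDR 0.569). POG libraries were lower, at 9.37, 10.02 and 11.04 CPM, with no overlap with NC. *HAS2* fell by 0.34 on the log2 scale with POG (SE 0.0804, edgeR FDR 4.95e-04), a call lost without NC replicate 1 (−0.23, FDR 0.169). DEG libraries, at 11.9 and 11.5 CPM, lay just below NC replicate 2 and were not called (−0.14, 95% interval −0.31 to 0.03, edgeR FDR 0.398). An antisense RNA named *HAS2-AS1* shares 251 bp of exon with *HAS2* on the opposite strand and was not analysed here; the strand setting of the counting is not given in the sources used here.

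*HAS3* (ENSG00000103044.10; hg38 chromosome 16, 69105653 to 69118719), a synthase of shorter chains, was at 3.37 to 4.55 CPM in all libraries. It was not called in any comparison, and its largest difference from NC was −0.25 with serum (95% interval −0.55 to 0.05, edgeR FDR 0.181). *HAS3* shares 365 bp of exon with *CHTF8* on the opposite strand, a gene with 59394 reads over the libraries against 2061 for *HAS3*. *HAS1* (ENSG00000105509.10; hg38 chromosome 19, 51713112 to 51723991), the least active synthase, had 4 to 6 reads per library in PC, 6 to 12 in NC, 7 to 14 in RES, 5 to 8 in POG and 3 to 6 in DEG. At this depth no difference was detectable: against NC the 95% interval ran from −2.40 to 0.30 with serum and from −0.94 to 1.23 with RES.

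*CD44* (ENSG00000026508.17; hg38 chromosome 11, 35138882 to 35232402) encodes the main cell surface receptor of hyaluronan. It was highest in NC, at 1078 and 1065 CPM, against 984 and 967 CPM in PC. RES libraries were at 1008, 1011 and 1008 CPM, POG libraries at 1007, 1012 and 1003, and DEG libraries at 972 and 970. No library of another group reached the NC level, yet the differences were small. *CD44* fell by 0.13 with serum (SE 0.0252, edgeR FDR 1.68e-04) and fell by 0.14 with DEG (SE 0.0252, edgeR FDR 4.61e-04). With RES (−0.09, edgeR FDR 0.0367) and POG (−0.09, edgeR FDR 0.0237) the call was lost when any 1 of the 5 libraries compared was left out, with FDRs of 0.0939 to 0.297 and 0.0666 to 0.238. Scaling by library totals also ended these calls (FDR 0.197 and 0.12). The serum call was lost with dispersions from PC and NC alone (FDR 0.0641). Counts per gene do not separate the many splice forms of this gene.

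*TNFAIP6* (ENSG00000123610.4; hg38 chromosome 2, 151357592 to 151380046) encodes TSG-6, a secreted protein made in inflammation that binds hyaluronan and transfers heavy chains of inter-alpha-inhibitor onto it. Its level was 33.0 and 34.2 CPM in NC and 16.6 and 16.1 CPM in PC. Serum thus came with about 0.488 times the level (log2 fold change −1.03, SE 0.0679, edgeR FDR 2.88e-49). RES libraries, at 34.5, 34.7 and 31.4 CPM, spanned the NC values (−0.0022, 95% interval −0.12 to 0.11, edgeR FDR 1). POG libraries were at 27.9, 28.6 and 26.5 CPM and DEG libraries at 25.3 and 27.8 CPM, all below NC and above PC. *TNFAIP6* fell by 0.28 with POG (SE 0.0583, edgeR FDR 8.78e-05) and fell by 0.34 with DEG (SE 0.0653, edgeR FDR 2.25e-05). The serum, POG and DEG calls held under every alternative run, including each library left out.

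*CEMIP* (ENSG00000103888.16; hg38 chromosome 15, 80779343 to 80951776) encodes a protein that binds hyaluronan and is needed for its breakdown into fragments by fibroblasts. Among members called with a compound, it had the largest change with each of the 3. NC libraries held 111 and 113 CPM, RES libraries 67.4, 71.5 and 72.4, POG libraries 61.5, 58.2 and 59.6, DEG libraries 61.4 and 63.0, and PC libraries 49.4 and 54.7. Every library that received a compound or serum was below both NC libraries, and PC libraries were the lowest. *CEMIP* fell by 1.11 with serum (SE 0.0482, edgeR FDR 5.48e-106), fell by 0.67 with RES (SE 0.0425, edgeR FDR 9.19e-48), fell by 0.91 with POG (SE 0.0428, edgeR FDR 1.3e-87) and fell by 0.85 with DEG (SE 0.048, edgeR FDR 5.42e-61). These correspond to 0.464, 0.629, 0.534 and 0.556 times the NC level, and all 4 calls held under every alternative run. *MESD*, which shares 224 bp of exon with *CEMIP* on the opposite strand, was called against NC in DEG only (−0.18, edgeR FDR 0.00346). Its part in the *CEMIP* counts was not tested.

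*CEMIP2* (ENSG00000135048.13; hg38 chromosome 9, 71683366 to 71816690), a membrane protein related to CEMIP that degrades hyaluronan at the cell surface, moved little. NC libraries were at 46.9 and 47.9 CPM, PC libraries at 40.5 and 43.5 CPM, and compound libraries between 41.1 and 47.3 CPM. RES replicate 2, at 47.3 CPM, was the only compound library inside the NC range. *CEMIP2* fell by 0.18 with serum (SE 0.0594, edgeR FDR 0.0125), a call lost without PC replicate 1 (−0.12, FDR 0.139) or NC replicate 2 (−0.15, FDR 0.116). With POG (−0.14, FDR 0.0707) and DEG (−0.15, FDR 0.117) the exact test made no call, and with dispersions from the groups compared it did (FDR 0.0108 and 0.0202).

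The hyaluronidase genes lie side by side on the minus strand of hg38 chromosome 3, in 29952 bp from 50292831 to 50322782, in the order *HYAL3*, *HYAL1*, *HYAL2*. *HYAL1* encodes a lysosomal hyaluronidase that cuts chains to small fragments, *HYAL2* a membrane-anchored enzyme that starts on long chains, and *HYAL3* a relative whose own activity is little known. All 3 had their highest group mean in RES, at 4.09 CPM for *HYAL1*, 45.9 for *HYAL2* and 9.72 for *HYAL3*. *HYAL1* and *HYAL3* had their lowest group mean in PC (1.21 and 4.82 CPM), and *HYAL2* had its lowest in DEG (38.2 CPM). Likeness among the 3 was not tested. *HYAL2* was the most abundant of them, with 62.4% ± 1.33 of their summed level per kilobase in RES (SD, n = 3) and 76.9% ± 1.32 in PC (SD, n = 2).

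*HYAL1* (ENSG00000114378.16; 50299890 to 50312381) stood at 3.33 and 2.79 CPM in NC and at 1.56 and 0.854 CPM in PC. It was thus lower in both serum libraries than in any other, and it fell by 1.32 on the log2 scale (SE 0.21, edgeR FDR 2.96e-10). RES libraries, at 4.15, 3.76 and 4.38 CPM, were all above NC (0.42, 95% interval 0.1 to 0.74, edgeR FDR 0.0582). That difference was just over the threshold and passed when libraries were scaled by their totals (FDR 0.0377) or with dispersions from RES and NC alone (FDR 0.033). POG libraries were at 3.51, 3.88 and 3.74 CPM and DEG libraries at 3.51 and 2.95 CPM, and neither group was called (edgeR FDR 0.261 and 0.885).

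*HYAL2* (ENSG00000068001.13; 50317790 to 50322782) was at 40.5 and 40.7 CPM in NC and at 43.2 and 40.7 CPM in PC, which overlapped (log2 fold change 0.05, 95% interval −0.05 to 0.15, edgeR FDR 0.527). RES libraries were higher, at 46.3, 45.8 and 45.6 CPM. *HYAL2* rose by 0.18 with RES (SE 0.0478, edgeR FDR 0.00615), a call lost without NC replicate 1 (0.17, FDR 0.103) or 2 (0.18, FDR 0.0741). POG libraries, at 41.2, 42.1 and 40.3 CPM, lay around NC (0.02, edgeR FDR 0.869), and DEG libraries lay lower, at 36.6 and 39.7 CPM (−0.09, edgeR FDR 0.383). *HYAL2* shares 509 bp of exon with *TUSC2* on the same strand. *TUSC2* was called higher with serum (0.18, edgeR FDR 0.0451) and was not called with any compound (edgeR FDR 0.546 with RES). Its part in the *HYAL2* counts was not tested.

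*HYAL3* (ENSG00000186792.16; 50292831 to 50299405) was the only member called in opposite directions with RES and POG. NC libraries held 7.77 and 7.09 CPM and PC libraries 4.47 and 5.17 CPM, a fall of 0.63 on the log2 scale (log2 fold change −0.63, SE 0.115, edgeR FDR 6.01e-07). RES libraries were at 9.18, 9.75 and 10.2 CPM, above every other library of the study. *HYAL3* rose by 0.39 with RES (SE 0.0977, edgeR FDR 0.00185), a call lost without NC replicate 2 (0.32, FDR 0.118). POG libraries were at 5.62, 6.17 and 5.94 CPM, below NC and above PC. *HYAL3* fell by 0.33 with POG (SE 0.102, edgeR FDR 0.0141), a call lost without NC replicate 1 (−0.26, FDR 0.256) or POG replicate 1 (−0.30, FDR 0.0751). DEG libraries were close to POG, at 6.23 and 6.34 CPM, and were not called against NC (−0.24, 95% interval −0.46 to −0.02, edgeR FDR 0.199). *HYAL3* shares 232 bp, 11.8% of its exon length, with *NAA80* on the same strand. *NAA80* had a mean of 17.3 CPM in RES, 18.6 in NC and 19.4 in POG. It was called against NC with no compound (edgeR FDR 0.355 with RES) and not with serum (edgeR FDR 0.29). *IFRD2*, which shares 43 bp of exon with *HYAL3* on the same strand, was called higher with serum (0.28, edgeR FDR 3.04e-07) and with no compound. The part of *NAA80* and *IFRD2* in the *HYAL3* counts was not tested.

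The bases upstream of the start site are shown for *CEMIP*, *TNFAIP6* and *HYAL3*, chosen after their values were seen as examples among the members called lower in POG than in NC. The promoter table (RefSeq, GRCh38.p14) held windows of 250 bases before the start for 9 of the 10 members. Both strands were searched for 6 motifs, and matches stand in capitals. Of 35116 such windows, 10.7% held the TATA box motif TATAAA, 32.0% the CAAT box motif CCAAT, 42.6% the GC box motif GGGCGG, 6.57% the AP-1 motif TGANTCA, 6.34% the E-box motif CACGTG and 9.05% the half-site motif TTGCNNAA. The stretches are chr15:80779120-80779342 (plus strand) for *CEMIP*, chr2:151357342-151357591 (plus strand) for *TNFAIP6* and chr3:50299406-50299655 (minus strand) for *HYAL3*, each written 5′ to 3′.
CEMIP: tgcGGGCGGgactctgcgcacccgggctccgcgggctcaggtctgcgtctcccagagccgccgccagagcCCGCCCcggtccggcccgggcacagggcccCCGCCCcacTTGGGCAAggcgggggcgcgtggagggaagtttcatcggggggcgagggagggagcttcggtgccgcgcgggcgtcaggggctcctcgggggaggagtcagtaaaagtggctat
TNFAIP6: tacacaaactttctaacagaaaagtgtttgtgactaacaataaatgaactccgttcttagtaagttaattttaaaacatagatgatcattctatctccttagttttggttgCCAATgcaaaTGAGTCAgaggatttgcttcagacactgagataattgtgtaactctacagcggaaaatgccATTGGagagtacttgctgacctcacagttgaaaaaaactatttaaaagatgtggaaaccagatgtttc
HYAL3: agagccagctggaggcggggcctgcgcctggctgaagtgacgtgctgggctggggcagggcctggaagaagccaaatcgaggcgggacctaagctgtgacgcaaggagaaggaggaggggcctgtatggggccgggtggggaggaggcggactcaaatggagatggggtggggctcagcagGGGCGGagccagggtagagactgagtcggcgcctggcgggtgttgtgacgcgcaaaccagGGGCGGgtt
*CEMIP* had 3 matches of GGGCGG and 1 of TTGCNNAA, and a TATAAA begins 30 bases before its RefSeq start, across the end of the printed stretch. *TNFAIP6* had CCAAT at 139 and 68 bases before the start and TGANTCA at 129 bases before it, and no GGGCGG. *HYAL3* had GGGCGG at 69 and 9 bases before the start and none of the other motifs. RefSeq lists a further *HYAL3* start, whose window also held GGGCGG and none of the others. No motif searched was in all 3 stretches. A match of letters is a description of the window and says nothing of what binds there.

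The compounds were given at the same concentration and were compared with each other in 3 pairs. Between POG and RES 5 of the 10 members were called, all lower with POG, where 27.9% of all genes tested were called (13.7% higher, 14.1% lower). Among the called members *HYAL3* differed most, with a mean of 5.91 ± 0.278 CPM in POG and 9.72 ± 0.529 CPM in RES (SD, n = 3 and 3). Its log2 fold change was −0.72 (SE 0.0875, edgeR FDR 1.53e-14). *HAS2* followed (−0.43, SE 0.0703, edgeR FDR 2.21e-08), with 10.1 ± 0.841 CPM in POG and 13.7 ± 0.298 CPM in RES (SD, n = 3 and 3). *TNFAIP6* (−0.28, FDR 2.66e-06), *CEMIP* (−0.24, FDR 1.94e-07) and *HYAL2* (−0.16, FDR 0.00217) were lower as well. These 5 were picked by a test on the same libraries, and no POG library overlapped a RES library for any of them. The share of all genes tested without such overlap is not given here. All 5 calls held under every alternative run. *CD44* had nearly the same level in both groups, with a difference of −0.0027 and a 95% interval of −0.04 to 0.04. Of the genes that share exon with members, *MESD* was lower in POG than in RES (−0.16, edgeR FDR 1.58e-04), as *CEMIP* was. *NAA80* was higher (0.17, edgeR FDR 0.0214), opposite to *HYAL3*. The part of *MESD* and *NAA80* in the counts of these members was not tested. The summed osteoblast, endothelial, epithelial and chondrocyte markers were also lower in POG and DEG than in RES, without overlap. So was the leukocyte and macrophage sum, at 4.05 to 4.42 CPM in RES, 3.15 to 3.51 in POG and 2.89 to 3.05 in DEG. Within the osteoblast list, *COL1A1*, *COL1A2* and *ALPL* were lower in POG and DEG than in RES without overlap. *SPARC* and *RUNX2* went the other way without overlap. *SPARC* was at 1019 to 1025 CPM in RES, 1056 to 1065 in POG and 1098 to 1114 in DEG. *RUNX2* was at 44.3 to 46.9 CPM in RES, 48.1 to 51.3 in POG and 47.6 to 48.5 in DEG. The part of these markers in these differences was not tested.

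The genes called between DEG and RES were the same 5, again lower in DEG, where 21.2% of all genes tested were called (10.3% higher, 10.8% lower). *HYAL3* was 0.646 times the RES level (log2 fold change −0.63, SE 0.1, edgeR FDR 1.93e-08), *TNFAIP6* 0.792 times (−0.34, SE 0.0595, edgeR FDR 9.56e-07) and *HYAL2* 0.832 times (−0.27, SE 0.0483, edgeR FDR 2.42e-06). *CEMIP* (−0.18, edgeR FDR 0.00145) lost its call without DEG replicate 1 (−0.16, FDR 0.0713). *HAS2* (−0.23, edgeR FDR 0.0245) lost it without RES replicate 2 (FDR 0.084), DEG replicate 1 (FDR 0.106) or DEG replicate 2 (FDR 0.206), and under DESeq2 (FDR 0.052). *MESD* was lower in DEG than in RES too (−0.23, edgeR FDR 1.63e-06). *IFRD2*, with 43 bp of exon shared with *HYAL3* on the same strand, had 34695 reads over the libraries against 3614 for *HYAL3*. It was higher in DEG than in RES (0.16, edgeR FDR 0.00474), opposite to *HYAL3*. The part of *MESD* and *IFRD2* in the counts of these members was not tested. These RES libraries are shared with the comparison of POG and RES.

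Between DEG and POG edgeR's exact test called 0 of the 10 members, as did the quasi-likelihood test and DESeq2, where 1.05% of all genes tested were called (0.55% higher, 0.497% lower). At an unadjusted p under 0.05, 2 members passed, *HAS2* (0.20, 95% interval 0.04 to 0.36) and *HYAL2* (−0.11, 95% interval −0.21 to −0.01). For *CEMIP* the difference was 0.06 (95% interval −0.03 to 0.15), for *TNFAIP6* −0.06 (−0.18 to 0.06) and for *HYAL3* 0.09 (−0.12 to 0.29). The absence of a call does not show that the compounds act alike.

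**Figure D4:**
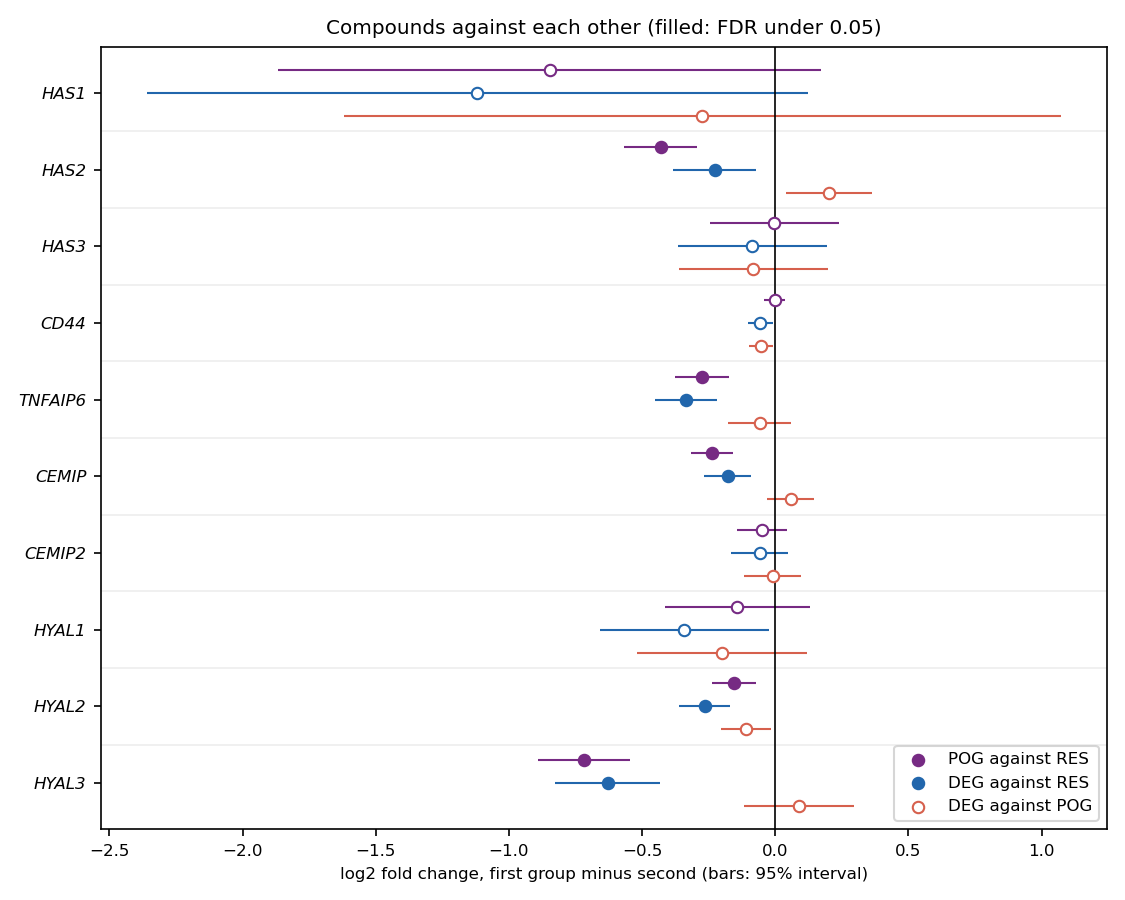
Log2 fold change of each gene between compounds, first group minus second, with its 95% interval and filled where the FDR was under 0.05. *HYAL3* lies at −0.72 for POG against RES and at −0.63 for DEG against RES, and all points of DEG against POG are open.

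Other genes of hyaluronan metabolism were taken from lists of 44 genes, of which 43 had a row in the count table and 30 passed the filter. With serum 12 of these 30 were higher and 7 lower, beside 21.4% higher and 20.9% lower of all genes tested. Of 8 enzymes that make the UDP-sugar precursors, 4 were higher and 1 lower. *GNPNAT1*, an acetyltransferase on the way to UDP-N-acetylglucosamine, rose from 56.5 to 81.4 CPM (log2 fold change 0.53, edgeR FDR 3.29e-26), while *GFPT2*, a form of the enzyme that starts this way, fell from 491 to 356 CPM (−0.46, edgeR FDR 3.27e-37). Among 13 tested binding and link proteins 5 were higher and 2 lower. *VCAN*, the large proteoglycan versican that hyaluronan carries, rose from 13.5 to 34.0 CPM with serum (1.33, edgeR FDR 4.16e-52). *HAPLN1*, a link protein between hyaluronan and such proteoglycans, rose from 0.355 to 1.02 CPM (1.51, edgeR FDR 0.00112), a call lost without NC replicate 1 (1.09, FDR 0.0772). Its relatives *HAPLN3* (−0.67, FDR 1.58e-23) and *HAPLN2* (−0.66, FDR 0.0209) fell, and the *HAPLN2* call was lost without PC replicate 1 (−0.35, FDR 0.384) or either NC library (FDR 0.0895 and 0.0797). *C1QBP*, a mitochondrial protein that can bind hyaluronan, rose by 0.66. The lysosomal enzymes *HEXA* (−0.24, edgeR FDR 1.32e-05) and *GUSB* (−0.28, edgeR FDR 1e-10), which act on hyaluronan fragments, were lower with serum.

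Of the 30 tested, 4 were higher and 3 lower with RES, 5 and 4 with POG, and 4 and 2 with DEG, beside 11.2%, 14.5% and 9.63% of all genes tested that were called. With 1 library left out these counts fell from 7 to as few as 3 (without NC replicate 2), from 9 to 4 (without NC replicate 2) and from 6 to 3 (without DEG replicate 2). *PTX3*, the pentraxin that TSG-6 and heavy chains tie into hyaluronan matrix, stood at a mean of 63.4 CPM in NC, 51.8 in RES, 50.4 in POG and 51.0 in DEG. It fell by 0.29, 0.33 and 0.32 on the log2 scale (edgeR FDR 2.24e-09, 2.94e-12 and 8.6e-09), and was not called with serum. *HABP4*, an intracellular RNA-binding protein named for its affinity to hyaluronan, rose by 0.16, 0.22 and 0.23. The RES call of *HABP4* was lost without either NC library, RES replicate 1 or RES replicate 3 (FDR 0.0609 to 0.162), and the DEG call without DEG replicate 2 (FDR 0.0587). *GFPT1*, the widely expressed form of the first enzyme to UDP-N-acetylglucosamine, rose from a mean of 198 CPM in NC to 226 in POG (0.19, edgeR FDR 2.14e-05) and 239 in DEG (0.27, edgeR FDR 9.04e-09). *PGM3*, a later enzyme of the same route, rose by 0.16 with POG (edgeR FDR 4.26e-04) and 0.22 with DEG (edgeR FDR 3.8e-06). Neither was called with RES, and both were higher in POG and in DEG than in RES directly (*GFPT1* by 0.19 and 0.27, *PGM3* by 0.15 and 0.21).

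Further calls with RES were higher *EZR* (0.19), the linker ezrin that ties CD44 to actin, and *MMP14* (0.13), a membrane protease that cuts CD44 off, and lower *HAPLN3* (−0.22) and *GFPT2* (−0.09). Those of *EZR* and *MMP14* held under every alternative run. *GFPT2* was lost without either NC library, RES replicate 2 or RES replicate 3 (FDR 0.102 to 0.385), and *HAPLN3* without NC replicate 2 (FDR 0.271). With POG, *VCAN* (−0.27) lost its call without NC replicate 2 or POG replicate 3 (FDR 0.299 and 0.0878), and *ADAM10* (−0.10) and *MSN* (−0.09) lost theirs without any 1 of the 5 libraries compared (FDR 0.0822 to 0.265 and 0.0525 to 0.197). The POG call of *HAPLN2* (0.56) was lost without either NC library or POG replicate 1 or 2 (FDR 0.0762 to 0.208), by the quasi-likelihood test (FDR 0.0664) and by DESeq2 (FDR 0.0791). The DEG calls of *HAPLN2* (0.63) and *MSN* (−0.12) were lost without any 1 of the 4 libraries compared (FDR 0.084 to 0.329 and 0.0895 to 0.14). That of *HAPLN2* was also lost by the quasi-likelihood test (FDR 0.0818) and by DESeq2 (FDR 0.0914). Between compounds, *HAPLN3* was higher in POG (0.28) and DEG (0.39) than in RES, as was *HAPLN2* (0.44 and 0.50). The *HAPLN2* call in POG was lost without RES replicate 1, POG replicate 1 or POG replicate 2 (FDR 0.0802 to 0.248) and that in DEG without RES replicate 1 or either DEG library (FDR 0.0791 to 0.352). Both of these calls against RES were also lost by the quasi-likelihood test (FDR 0.0632 in POG and 0.0711 in DEG) and by DESeq2 (FDR 0.0855 and 0.0913). The DEG call was lost with no filter as well (FDR 0.0572). *MMP14* (−0.11 and −0.13) and *EZR* (−0.13 and −0.11) were lower in POG and DEG than in RES, and the *EZR* call in DEG was lost without RES replicate 1 (FDR 0.0899), RES replicate 3 (FDR 0.0544) or either DEG library (FDR 0.139). *LAYN* (−0.17), a hyaluronan receptor, was lower in POG than in RES. *LYVE1* and *STAB2*, hyaluronan receptors of vessel linings, did not pass the filter.

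**Figure D5:**
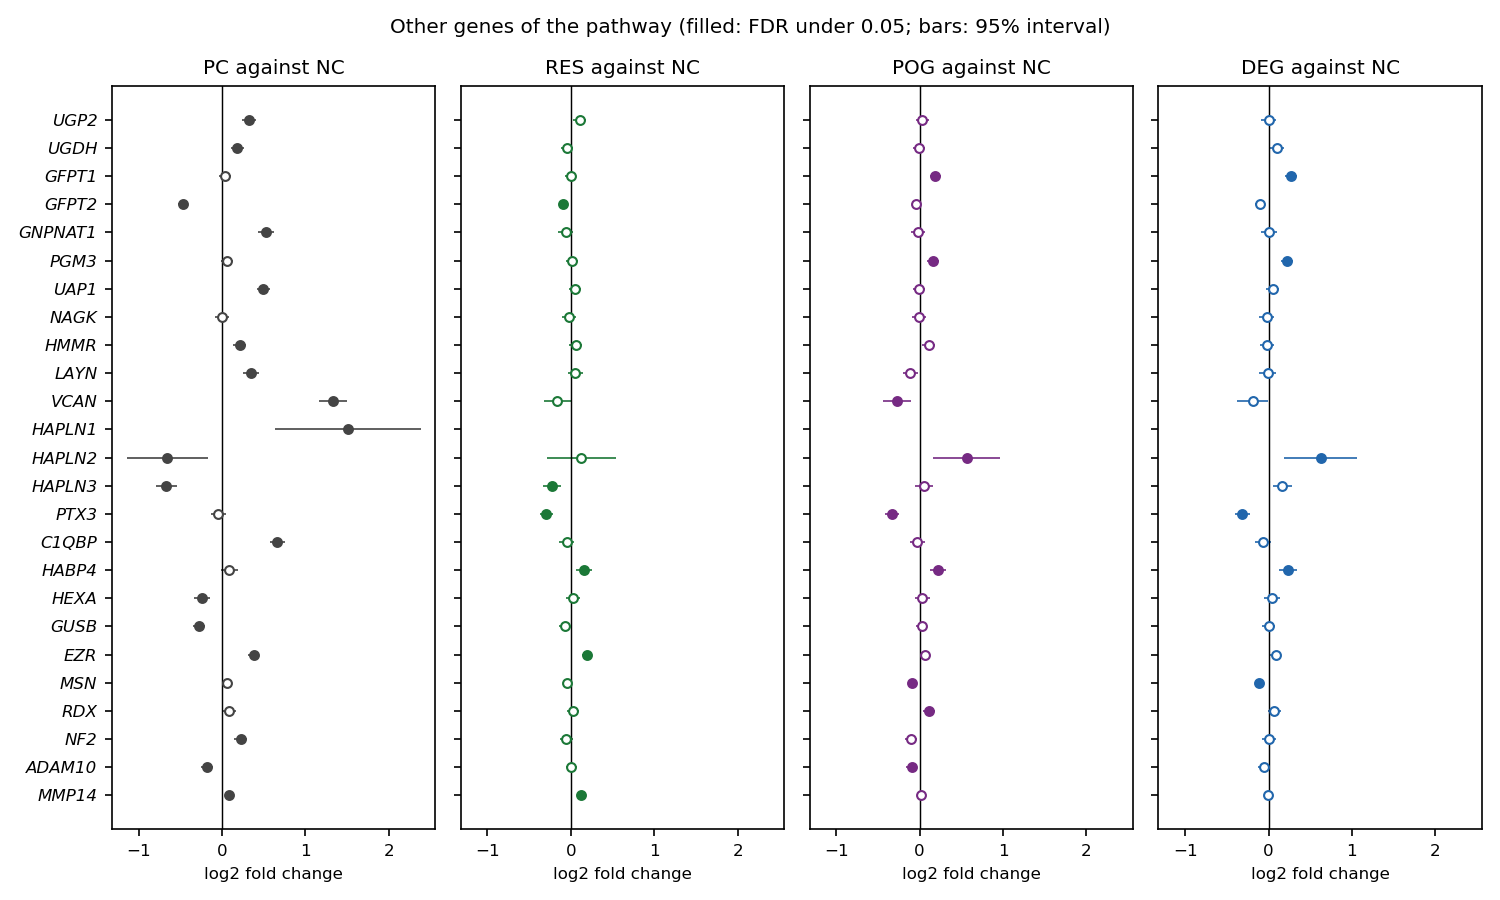
Log2 fold change against NC of other hyaluronan pathway genes whose mean reached 1 CPM in either group, with 95% intervals and filled where the FDR was under 0.05. *VCAN* and *HAPLN1* lie at 1.33 and 1.51 with serum, and *PTX3* lies at −0.29, −0.33 and −0.32 with RES, POG and DEG.

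The genes with the pattern most like that of *HAS2* and *CEMIP*, the members with the widest range of group means among the 7 with a mean of at least 5 CPM, were found by correlation of log2 CPM over the 12 libraries. Nearest to *HAS2* were *RBPMS* (Pearson's r 0.994), *TAGLN* (0.992) and *HMGA1* (0.991). Nearest to *CEMIP* were *APP* (0.951), *COL3A1* (0.950) and *ADARB1* (0.946). The means of *COL3A1* were 906 CPM in PC, 1726 in NC, 1177 in RES, 1174 in POG and 1154 in DEG. The libraries fall into 5 groups, so these values describe the group pattern, and by Spearman's rank correlation 0 of the 3 nearest genes were the same for either member.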

How the data were processed

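The authors aligned read pairs of polyA-selected mRNA to hg38 with STAR (BWA MEM was named too) and deposited raw read counts per Ensembl gene from featureCounts, unnormalized, 1 column per library; tool versions, the annotation, strandedness and the handling of multi-mapped reads are not given in the sources used here. Of 13 labelled samples, 12 had counts and DEG replicate 3 was not analysed here. Replicate numbers follow accession order and pair nothing. Symbols matched 43214 of 43836 genes. Genes with few reads were removed with filterByExpr, which left 17092 genes holding 99.967% of the reads. The exact test of edgeR 4.0.16 (R 4.3.3), which the authors named, was run with TMM scaling, dispersions over all 12 libraries and Benjamini-Hochberg adjustment over all genes tested. SEs and 95% intervals were taken from the quasi-likelihood fit of edgeR. The test was run on simulated counts with 200 genes changed in PC alone, where 7245 were called in PC against NC in the data. This check does not show how the test does with so many changed genes. Exon lengths and coordinates came from GENCODE v44 (hg38); *HAS2* sequence is not shown. The members and lists were chosen with earlier results of these data known. Pathway genes were named where called with at least 1 CPM in a group, at most 4 each way per comparison; genes of like pattern were the 3 with the highest Pearson correlation among those of at least 5 CPM, for 2 members. Alternatives were the quasi-likelihood test, DESeq2 1.42.0, scaling by DESeq2's size factors or by library totals, omitting the filter or asking for a 1 CPM mean, pair dispersions, an FDR of 0.01, and each library left out in turn. Those for the other pathway genes were chosen after seeing the data. 1 of the listed pathway genes is counted and not reported here by itself.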

Additional observations from a re-analysis of the deposited data

How the results depend on the processing

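No paired analysis was possible because numbers of replicates follow accession order and no label pairs samples. Of 29 called fold changes of the members, 19 kept their call and direction under each of 8 other settings and each library left out, and none of the 29 changed direction. The count of members called against NC was 1 to 3 with RES and 2 to 5 with POG when 1 library was left out (RES 1 without NC replicate 2 and 2 without NC replicate 1, POG 2 without NC replicate 1 and 3 without POG replicate 1), and for DEG against RES it was 3 to 5 (3 without DEG replicate 1). At an FDR of 0.01 the POG count was 3, and with dispersions from the pair DEG against POG had 1 call, *CD44* (FDR 0.0368). Leaving out a library lowers the power by itself. Of 552 alternative values of named pathway genes 81 lost the call and 0 changed direction.

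Fold changes that changed direction were all uncalled. *TNFAIP6* with RES was 0.025 with library totals, 0.0021 with no filter and 0.0038 with at least 1 CPM. With 1 library left out it ran from −0.028 to 0.044, *HAS2* with RES from −0.015 to 0.20, *HAS1* with RES from −0.25 to 0.71 and *HYAL1* with DEG from −0.052 to 0.21. For POG against RES, *CD44* ran from −0.0059 to 3.311e-04 and *HAS3* from −0.062 to 0.098. *HAS3* ran from −0.20 to 0.019 for DEG against RES. For DEG against POG, *TNFAIP6* ran from −0.13 to 0.0076, *CEMIP2* from −0.048 to 0.037, *HAS3* from −0.20 to 0.022 and *HAS1* from −0.83 to 0.12. *HAS1* rests on 3 to 14 reads per library, which limits what can be seen.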
